A study of Homo sapiens with 9 samples.

Results

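The nucleolar ribosome biogenesis factors described here are 10 genes, taken by name from the deposited table: NOP56, NOP58, FBL, NCL, NPM1, DKC1, NOLC1, RRS1, BOP1 and PES1. They are 10 of the 62710 genes in the table, and all 10 had enough reads to be tested among 15230 genes. All libraries came from A375R, an established human melanoma line (A375) made resistant to the BRAF inhibitor PLX4032, and the study's methods describe culture of the resistant cells in that inhibitor. There were 3 libraries from control cells given DMSO, the solvent (the labels call these WT), 3 from cells given 10 µM VHL-r for 2 h, and 3 from cells given 10 µM R4VPL3-1 for 2 h. VHL-r is the moiety that binds the ubiquitin ligase subunit VHL. R4VPL3-1 is the full PROTAC-like molecule, in which that moiety is linked to a binder of the ubiquitin ligase RNF4. A375R is 1 line, so the 3 libraries of a group were repeats of the culture and not different tumours.

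Ribosomes are assembled in the nucleolus. RNA polymerase I transcribes the precursor rRNA, small nucleolar ribonucleoproteins (snoRNPs) guide its chemical modification, and a large set of assembly factors folds, cuts and exports the pre-ribosomes. MYC, a transcription factor that binds E-box sequences as a dimer with MAX, is known to drive many of these genes in growing cells. These genes are therefore often read as an output of growth control, and the comparisons ask how their transcripts stood when MYC mRNA was low.

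The libraries held between 26435568 and 32085626 reads assigned to genes, and values are these reads divided by 1 size factor per library, called normalized counts below. A gene was called when limma gave an adjusted p of at most 0.05 (Benjamini-Hochberg over 15230 genes). The labelled lineage was checked first. SOX10, which specifies the melanocyte lineage, lay between 7900 and 17935 normalized counts over the 9 libraries and MITF between 893 and 1994, whereas the pigment genes MLANA, at 0 in every library, and TYR, at no more than 2.14, were not expressed at a usable level. The summed level of 8 lineage markers was 20733 to 22517 in DMSO, 11788 to 14670 in VHL-r and 10359 to 12525 in R4VPL3-1 libraries. SOX10 and MITF were the markers called lower in both comparisons with DMSO. SOX10 was also lower in R4VPL3-1 than in VHL-r cells (log2 difference -0.28, limma adjusted p = 0.00951, and 0.0805 without R4VPL3-1 replicate 1). Markers of epithelium, blood, endothelium and mesenchyme summed to 1526 to 1907, 1311 to 2343 and 1456 to 1823 in the same order. CDH1, PTPRC and CD3E stayed at or below 11.81, but other markers of these cell types were expressed. The mesenchymal COL1A1 lay between 729 and 1635 and PDGFRB between 156 and 247. The epithelial keratin KRT14 lay between 224 and 365, and the blood marker LYZ between 73.8 and 152. Of 6 tested, KRT14 alone was called lower in R4VPL3-1 cells (log2 fold change -0.47, limma adjusted p = 0.00104). The part of these marker levels in the results below was not tested.

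Of the 10 members, RRS1 fell and NOP56 rose, in both comparisons with DMSO. RRS1 fell by 17.8% in VHL-r cells and by 27.3% in R4VPL3-1 cells, and NOP56 rose by 12.2% and 11.7%. The other 8 members were not called in either comparison. MYC itself lay at 1253, 1254 and 1049 normalized counts in the DMSO libraries, at 379, 430 and 408 in the VHL-r libraries and at 320, 401 and 321 in the R4VPL3-1 libraries. Every treated library was therefore below every DMSO library. The log2 fold change of MYC was -1.54 (SE 0.094, limma adjusted p = 1.86e-10) in VHL-r cells and -1.77 (adjusted p = 9.8e-12) in R4VPL3-1 cells. R4VPL3-1 and VHL-r libraries overlapped for MYC, with a log2 difference of -0.23 (adjusted p = 0.37).

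**Figure D1:**
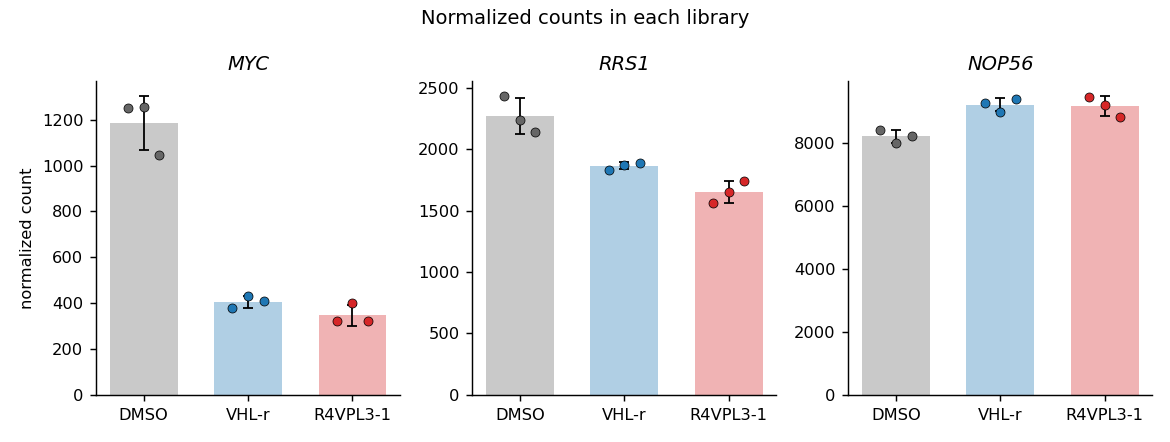
Normalized counts of MYC, RRS1 and NOP56 in each library (points), with the group mean (bars, from 0) and its SD (error bars) for 3 libraries each of DMSO, VHL-r and R4VPL3-1. All 6 treated libraries lie below the DMSO libraries for MYC and RRS1 and above them for NOP56.

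These counts were close to the shares over all genes. In VHL-r against DMSO, 1 of 10 members was called higher and 1 lower, beside 10.3% and 9.51% of all genes tested. In R4VPL3-1 against DMSO the counts were again 1 and 1, beside 13.1% and 11.8%. Groups that did not overlap were found for 3 of 10 members in VHL-r against DMSO (34.3% of all genes) and for 2 of 10 in R4VPL3-1 against DMSO (38% of all genes). The median log2 fold change of the members was -0.02 in VHL-r and -0.01 in R4VPL3-1 cells, and that of all genes was -0.0045 and -0.0063. Both comparisons used the same 3 DMSO libraries, and DMSO replicate 1 was the highest DMSO library for 8 of the 10 members. These are bulk libraries, each divided by its own size factor, so a change in total mRNA per cell would not appear in them. Fewer cells of a type also cannot be told apart from less RNA per cell.

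**Figure D2:**
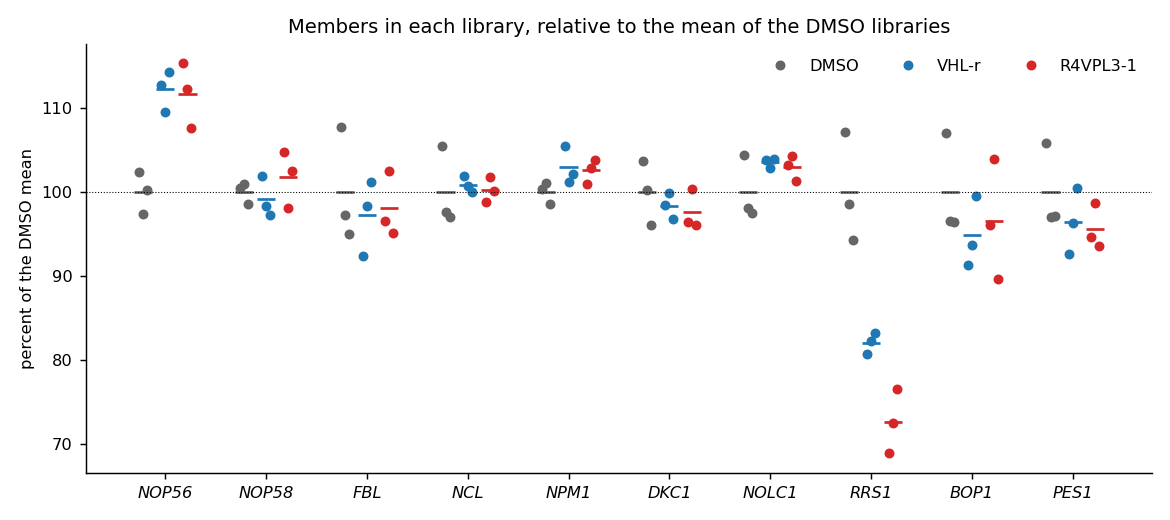
Each of the 10 members in each library as a percent of its own mean in the 3 DMSO libraries (points), with group means as short lines, for DMSO, VHL-r and R4VPL3-1. RRS1 lies below and NOP56 above every DMSO library in all 6 treated libraries, and the points of the other members scatter around 100%.

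The box C/D snoRNPs carry the methylation machinery for rRNA, with NOP56 and NOP58 as paired core proteins and fibrillarin (FBL) as the methyltransferase. NOP56 (ENSG00000101361, GRCh38 chromosome 20, 2652593 to 2658393, plus strand) measured 8428, 8012 and 8243 normalized counts in the DMSO libraries. It measured 9279, 9016 and 9405 in the VHL-r libraries, and 9488, 9237 and 8855 in the R4VPL3-1 libraries. All treated libraries exceeded all DMSO libraries. The log2 fold change was 0.17 (95% interval 0.08 to 0.25, SE 0.042, limma adjusted p = 0.00632) in VHL-r cells and 0.16 (95% interval 0.073 to 0.25, limma adjusted p = 0.00678) in R4VPL3-1 cells. The genes of its partner proteins were not called. NOP58 (ENSG00000055044, chromosome 2, 202265736 to 202303661, plus strand) ranged from 7440 to 7619 in DMSO, 7339 to 7692 in VHL-r and 7407 to 7910 in R4VPL3-1 libraries, with log2 differences of -0.01 (limma adjusted p = 0.88) and 0.03 (limma adjusted p = 0.717). FBL (ENSG00000105202, chromosome 19, 39834458 to 39846379, minus strand) ranged from 7484 to 8481, 7275 to 7974 and 7492 to 8077 in the same order, with log2 differences of -0.04 (limma adjusted p = 0.678) and -0.03 (limma adjusted p = 0.757). For both NOP58 and FBL the 3 groups overlapped. The difference between NOP56 and its partners was not itself tested.

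The upstream sequence of NOP56 is shown because it was the member that rose. RefSeq (GRCh38.p14) gave promoter windows for 6 members, NOP56, FBL, NCL, DKC1 and PES1 with 1 each and NPM1 with 2, each 250 bases before to 50 bases after a start site. Windows of NOP58, NOLC1, RRS1 and BOP1 were not used here. The searched letters, on both strands, were the E-box CACGTG bound by MYC and MAX, the CCAAT box, the GC box GGGCGG and TTCNNGAA. Upstream of the start site these were found in 6.34%, 32.01%, 42.64% and 6.62% of 35116 RefSeq promoters, and none of the 7 windows held CACGTG or TTCNNGAA there. The bases before the annotated gene start of NOP56 are on chr20:2652382-2652592, plus strand, with GC boxes (GGGCGG, or CCGCCC on the other strand) and the CCAAT box (ATTGG on the other strand) in capitals.
NOP56: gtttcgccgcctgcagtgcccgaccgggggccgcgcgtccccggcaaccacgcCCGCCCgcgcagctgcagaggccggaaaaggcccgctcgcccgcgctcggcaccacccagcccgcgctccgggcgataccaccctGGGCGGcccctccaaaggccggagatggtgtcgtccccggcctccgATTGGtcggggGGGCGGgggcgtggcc
The E-box did occur just after the start site in FBL and PES1, both of which were not called. The stretches around it are chr19:39846356-39846385 and chr22:30591880-30591909, both on the minus strand, with the E-box in capitals, beginning 6 and 13 bases after the RefSeq start sites. Over the whole window, bases after the start site included, 7.26% of RefSeq promoters held an E-box.
FBL: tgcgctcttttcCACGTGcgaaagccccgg
PES1: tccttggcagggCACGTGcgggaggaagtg
A match of letters is a description of the window and says nothing of whether a factor was bound.

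NOP56 is also a host gene, whose introns carry snoRNAs that are released as the transcript is spliced. The annotation placed 17 small RNAs inside 5 of the members on the same strand, 6 of them in NOP56, 4 in NOP58, 3 each in NCL and DKC1, and 1 in BOP1. All 17 were listed at 0 in all 9 libraries, so the rise of NOP56 mRNA came with no measurement of the RNAs it hosts. The libraries were made from polyadenylated RNA. By the annotation, all 6 small RNAs in NOP56 also overlapped its exons, and 9.54% of the exon bases of NOP56 belonged to small RNAs as well. How reads in such shared bases were assigned is not given in the sources used here. The part of each in the zeros, or in the count of NOP56, was not tested. The searched box C letters, GTGATGA or ATGATGA near the start, were found in SNORD110 and SNORD57. They were not found in SNORD86 and SNORD56, the other box C/D snoRNAs of NOP56, which are not shown. The pair with a match is on chr20:2654212-2654286 and chr20:2656939-2657010, plus strand, read from GRCh38. The box C and box D letters are in capitals, since these boxes are what the NOP56, NOP58 and FBL proteins assemble on.
SNORD110: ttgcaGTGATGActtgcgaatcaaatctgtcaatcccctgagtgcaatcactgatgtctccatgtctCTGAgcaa
SNORD57: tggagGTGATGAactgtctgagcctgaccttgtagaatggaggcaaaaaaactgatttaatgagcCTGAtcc

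Dyskerin (DKC1) is the pseudouridine synthase of the box H/ACA snoRNPs, and NOLC1 (Nopp140) is a chaperone that binds both snoRNP classes. DKC1 (ENSG00000130826, chromosome X, 154762742 to 154777689, plus strand) measured 13110, 12673 and 12142 normalized counts in DMSO, 12445, 12632 and 12228 in VHL-r and 12197, 12691 and 12141 in R4VPL3-1 libraries. Its log2 differences from DMSO were -0.02 (limma adjusted p = 0.765) and -0.03 (limma adjusted p = 0.604). NOLC1 (ENSG00000166197, chromosome 10, 102152176 to 102163871, plus strand) measured 19120, 17954 and 17863 in DMSO, 19011, 18827 and 19033 in VHL-r and 18910, 19105 and 18545 in R4VPL3-1 libraries. DMSO replicate 1 lay above all treated libraries and the other DMSO libraries lay below them. The log2 differences of NOLC1 were 0.05 (limma adjusted p = 0.435) and 0.04 (limma adjusted p = 0.487).

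Nucleolin (NCL) binds nascent pre-rRNA and nucleophosmin (NPM1) is the histone chaperone that scaffolds the outer nucleolus. Together they made up 63.8% to 65.3% of the members' summed normalized counts in each library. NPM1 (ENSG00000181163, chromosome 5, 171387116 to 171411810, plus strand) measured 75626, 76131 and 74298 in DMSO, 79523, 76219 and 76945 in VHL-r, and 76090, 77539 and 78252 in R4VPL3-1 libraries. The VHL-r libraries lay just above all DMSO libraries and the R4VPL3-1 libraries overlapped them, but neither log2 difference, 0.04 (limma adjusted p = 0.532) and 0.04 (limma adjusted p = 0.553), was called. Of the 100-base windows of NPM1 transcripts 3.65% also occur in other genes, led by the processed copies NPM1P27 and NPM1P39, so its count is uncertain to that extent. NCL (ENSG00000115053, chromosome 2, 231453531 to 231483641, minus strand) ranged from 46737 to 50813 in DMSO, 48214 to 49132 in VHL-r and 47605 to 49060 in R4VPL3-1 libraries. The treated libraries all fell inside the DMSO range, and its log2 differences were 0.01 (limma adjusted p = 0.869) and 0.004 (limma adjusted p = 0.961).

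PES1 and BOP1 form, with WDR12, the PeBoW complex that matures rRNA of the large subunit. RRS1 is a large subunit assembly factor that helps bring the 5S RNP into the pre-ribosome. PES1 (ENSG00000100029, chromosome 22, 30576625 to 30607083, minus strand) ranged from 6297 to 6870 in DMSO, 6013 to 6520 in VHL-r and 6073 to 6407 in R4VPL3-1 libraries, with log2 differences of -0.05 (limma adjusted p = 0.511) and -0.06 (limma adjusted p = 0.363). BOP1 (ENSG00000261236, chromosome 8, 144262045 to 144291438, minus strand) ranged from 5078 to 5635, 4809 to 5241 and 4718 to 5472, with log2 differences of -0.08 (limma adjusted p = 0.4) and -0.05 (limma adjusted p = 0.552). The groups overlapped for both genes.

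RRS1 (ENSG00000179041, chromosome 8, 66429014 to 66430733, plus strand) was called in both comparisons with DMSO, and its difference from PES1 and BOP1 was not itself tested. It measured 2434, 2240 and 2143 normalized counts in the DMSO libraries, 1834, 1870 and 1891 in the VHL-r libraries and 1565, 1649 and 1739 in the R4VPL3-1 libraries. The 3 groups did not overlap with each other, with DMSO highest and R4VPL3-1 lowest. The log2 fold change was -0.28 (95% interval -0.40 to -0.17, SE 0.056, limma adjusted p = 0.000845) in VHL-r cells and -0.46 (95% interval -0.58 to -0.34, limma adjusted p = 2.39e-06) in R4VPL3-1 cells. Without DMSO replicate 1, which was the highest library, the changes were -0.23 (limma adjusted p = 0.00901) and -0.41. Of the exon bases of RRS1 11.28% are shared on the same strand with ENSG00000285655, a gene without a symbol, and how reads in shared exons were assigned is not given in the sources used here. That gene measured 44.3 to 52.7 in DMSO, 34.0 to 39.9 in VHL-r and 26.9 to 37.5 in R4VPL3-1 libraries, with log2 fold changes of -0.41 (limma adjusted p = 0.199) and -0.63 (limma adjusted p = 0.0308).

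For the 8 members that were not called, the intervals say how large a change could have been missed. Their estimates lay between -5.09% and 3.57% in VHL-r cells and between -4.29% and 3.0% in R4VPL3-1 cells. Over the 8 genes, the 95% intervals reached no lower than -12.4% and no higher than 9.66% in VHL-r cells, and -11.0% and 9.06% in R4VPL3-1 cells. In VHL-r cells 3 of these estimates were above 0 and 5 below, and in R4VPL3-1 cells 4 and 4. The coefficient of variation between replicates had a median of 3.08% over the 30 pairs of a member and a group and ran from 0.6% to 7.43%. The members took 0.666% to 0.699% of the normalized counts of a library, over all 9 libraries.

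**Figure D3:**
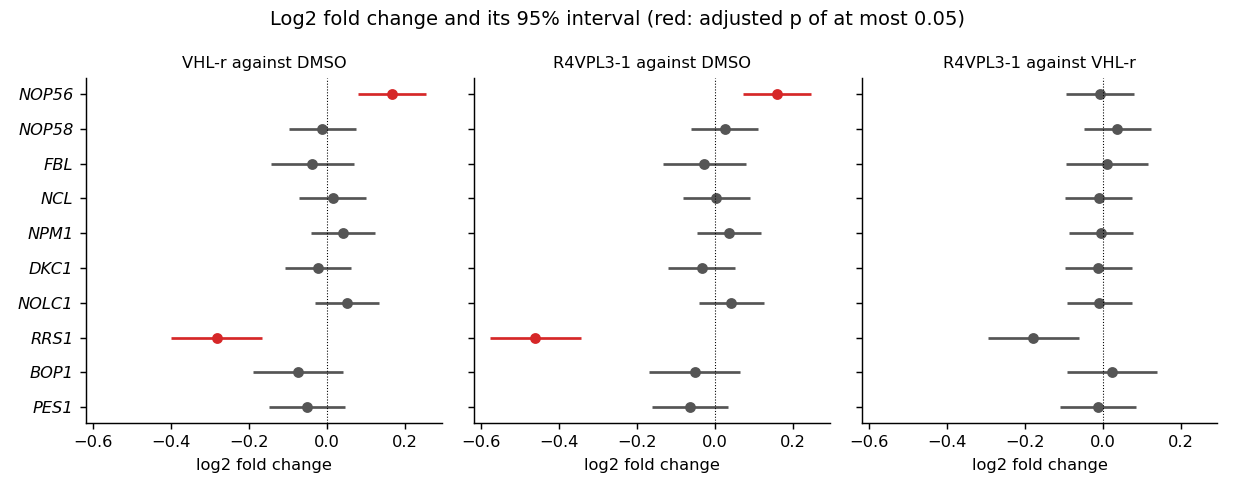
Log2 fold change of each member (points) with its 95% interval (lines) for VHL-r against DMSO, R4VPL3-1 against DMSO and R4VPL3-1 against VHL-r, with called genes in red. The intervals of 8 members cross 0 in both comparisons with DMSO, and in R4VPL3-1 against VHL-r the interval of RRS1 alone excludes 0, without a call after adjustment.

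The pair of compounds differs by the RNF4-binding moiety and linker that R4VPL3-1 carries in addition to the VHL moiety, and both were given at 10 µM for 2 h. Only this 1 pair could be compared. In R4VPL3-1 against VHL-r, 0 of 10 members were called by limma, edgeR or DESeq2, and 1 had an unadjusted p below 0.05. Of all genes 1.14% were called higher and 0.729% lower. That 1 member was RRS1, which differed in R4VPL3-1 cells by -11.6% from its level in VHL-r cells (95% interval -18.4% to -4.11%, limma adjusted p = 0.151), with no overlap between the groups. No other member had groups that did not overlap, and groups did not overlap for 14.1% of all genes. NOP56 differed by -0.01 on the log2 scale (limma adjusted p = 0.987), with an interval of -6.26% to 5.7%. Over all 10 members the estimates lay between -11.6% and 2.64% and the interval bounds between -18.4% and 10.1%, so differences within those bounds between the compounds are not shown to be absent.

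Per kilobase of annotated exon, NPM1 was the highest member in DMSO cells at 9067 ± 114 normalized counts per kilobase (SD, n = 3), followed by NCL at 5404 ± 255, NOLC1 at 4613 ± 177, FBL at 3683 ± 249, NOP58 at 2306 ± 29.1 and NOP56 at 1662 ± 42. PES1 at 1434 ± 72.7, DKC1 at 1374 ± 52.7, BOP1 at 1371 ± 83.3 and RRS1 at 1321 ± 86.1 followed, and these neighbours did not differ beyond their spread. In VHL-r cells NOP56 stood at 1865 ± 40.1 and RRS1 at 1084 ± 16.6 normalized counts per kilobase, and in R4VPL3-1 cells at 1857 ± 64.4 and 960 ± 50.5. The exon length sums every annotated exon of a gene, minor transcripts included, so it understates the level per kilobase of genes with many such exons.

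Beyond the members, 172 other genes of ribosome biogenesis were listed in 6 groups and 163 were tested. In VHL-r cells 18 of them (11%) were called lower and 1 (0.613%) higher, beside 9.51% and 10.3% of all genes. In R4VPL3-1 cells 24 (14.7%) were called lower and 3 (1.84%) higher, beside 11.8% and 13.1%. The list's median log2 fold changes were -0.04 in both, and each group of the list had a median below 0. The lower count in VHL-r cells rested on single libraries: without DMSO replicate 1 it was 4 of 163, beside 1113 of all genes, and without DMSO replicate 2 or VHL-r replicate 2 it was 5, beside 1098 and 1081. The list was chosen with earlier results of these data known, so the counts describe it and nothing in them was tested as a set.

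By group, the calls were as follows. Of all genes tested, 9.51% were called lower and 10.3% higher in VHL-r cells, and 11.8% and 13.1% in R4VPL3-1 cells. Of 59 tested factors of the small subunit processome and 40S assembly, 5 fell and 1 rose in VHL-r cells, and 9 fell and 1 rose in R4VPL3-1 cells. Of 60 large subunit assembly factors, 8 fell in VHL-r cells, and 8 fell and 2 rose in R4VPL3-1 cells. Of 16 genes of RNA polymerase I and its factors, 4 and 5 fell and none rose. Of 14 genes listed under the RNA exosome and its cofactors, ISG20L2 alone was called, lower in both (log2 fold changes -0.17 and -0.26). It is a separate exonuclease and not an exosome subunit, so no exosome subunit was called. Of 9 other box C/D genes none was called by limma, edgeR or DESeq2 in either comparison, with 0 and 3 at an unadjusted p below 0.05. Of 6 other H/ACA genes none was called in VHL-r cells by any of these tools, with 2 at an unadjusted p below 0.05, and GAR1, a core H/ACA protein, was called lower in R4VPL3-1 cells (log2 fold change -0.23, limma adjusted p = 0.00312).

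**Figure D4:**
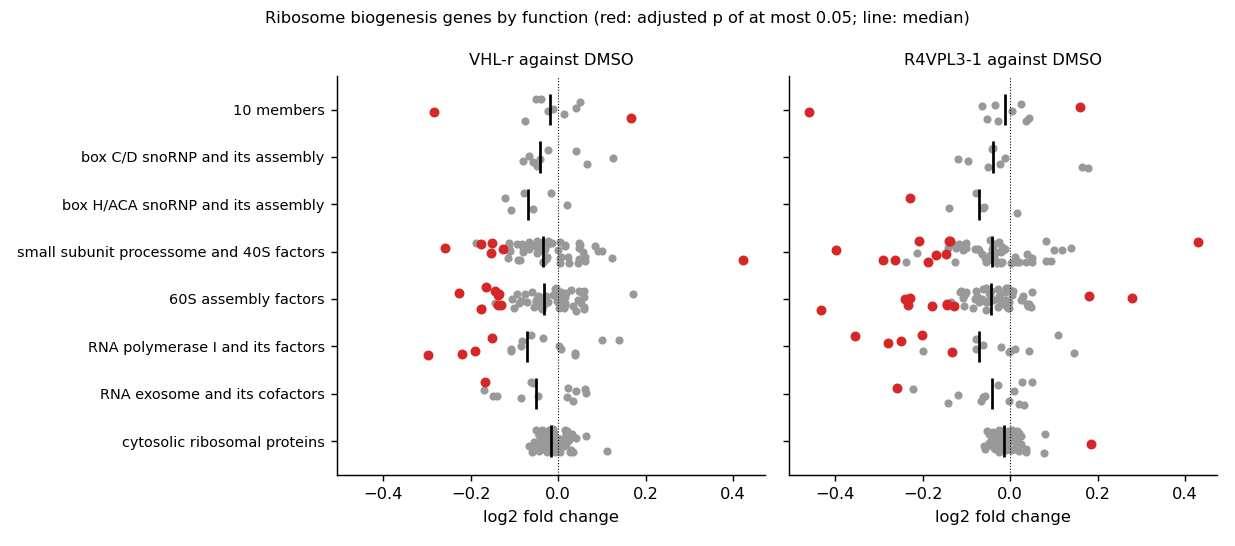
Log2 fold change of each tested gene (points) against DMSO in VHL-r cells (left) and R4VPL3-1 cells (right), for the 10 members, the 6 other groups of ribosome biogenesis genes and the cytosolic ribosomal proteins, with called genes in red and group medians as lines. Called genes of the other groups lie mostly below 0, and the ribosomal proteins stay close to 0.

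The genes of the list with the largest falls and rises are given next, beside the member RRS1, which is not in the list and changed by -0.28 and -0.46. In VHL-r cells POLR1B, the second largest subunit of RNA polymerase I, fell from 3425 ± 93.5 to 2787 ± 61.2 normalized counts (SD, n = 3; log2 fold change -0.30, limma adjusted p = 6.81e-05). WDR43, of the small subunit processome, fell from 6504 ± 267 to 5435 ± 218 (-0.26, limma adjusted p = 0.000224). URB2, a large subunit assembly factor, fell from 3597 ± 253 to 3074 ± 124 in VHL-r cells (-0.23, limma adjusted p = 0.00589, and 0.0502 without DMSO replicate 1). In R4VPL3-1 cells URB2 fell to 2666 ± 152 (-0.43, limma adjusted p = 5.33e-06) and was the deepest fall of the list. UTP3, of the small subunit processome, fell there from 2820 ± 37.4 to 2145 ± 175 (-0.40, limma adjusted p = 1.86e-05), and POLR1G, of RNA polymerase I, from 1979 ± 80.1 to 1549 ± 77.1 (-0.35, limma adjusted p = 3.4e-05).

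RIOK2, a kinase of late 40S maturation, went the other way. It rose from 994 ± 44.2 in DMSO to 1333 ± 67.2 in VHL-r (log2 fold change 0.42, limma adjusted p = 3.51e-05) and 1340 ± 83.2 in R4VPL3-1 cells (0.43, limma adjusted p = 2.04e-05). In R4VPL3-1 cells MDN1 and NVL, both ATPases that release factors from pre-60S particles, rose by 0.28 (limma adjusted p = 0.016, and 0.121 by DESeq2) and 0.18 (limma adjusted p = 0.0149, and 0.0663 without R4VPL3-1 replicate 1) on the log2 scale. Between the compounds UTP3 was the list's single call, lower in R4VPL3-1 than in VHL-r cells (2145 ± 175 against 2496 ± 126, log2 difference -0.22, limma adjusted p = 0.0495). That call was kept in 8 of 18 alternative fits, and its adjusted p reached 0.336 without R4VPL3-1 replicate 1.

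The genes of the finished ribosome's proteins held few calls beside all genes tested. Of those, 10.3% were called higher and 9.51% lower in VHL-r cells, and 13.1% and 11.8% in R4VPL3-1 cells. In VHL-r cells 4609 of the 15230 genes had an unadjusted limma p below 0.05. Of 74 tested cytosolic ribosomal protein genes none was called in VHL-r cells by limma, edgeR or DESeq2, and none had an unadjusted p below 0.05. In R4VPL3-1 cells RPL39 was called higher (log2 fold change 0.19, limma adjusted p = 0.0432) and none lower, and DESeq2 called none. Their median log2 fold changes were -0.02 and -0.01. A further small group of abundant nucleolar proteins, of which 4 genes were tested, held 1 call, MKI67, the proliferation marker Ki-67, higher in R4VPL3-1 cells (0.25, limma adjusted p = 0.0165) with overlapping groups, which edgeR called and DESeq2 did not.

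The MYC network is the set of proteins that dimerize with MAX or its relative MLX. Of its 11 tested genes, MYC included, 4 rose and 3 fell in VHL-r cells (10.3% and 9.51% of all genes), and 3 rose and 3 fell in R4VPL3-1 cells (13.1% and 11.8% of all genes). MYC, MGA and MLX fell in both. MGA fell by 0.48 and 0.51, and MLX by 0.24 and 0.29, on the log2 scale. MXD1, a repressor that competes with MYC for MAX, rose by 1.21 (limma adjusted p = 2.51e-09) and 1.71 (limma adjusted p = 6.03e-12), and was higher in R4VPL3-1 than in VHL-r cells by 0.50 (limma adjusted p = 0.00159). MXD3 rose by 0.49 and 0.37 and MXD4 by 0.34 and 0.51. MLXIP rose by 0.18 in VHL-r cells (limma adjusted p = 0.0164) and was not called in R4VPL3-1 cells (0.12, limma adjusted p = 0.117). MAX itself was not called, with log2 differences of 0.09 (limma adjusted p = 0.265) and 0.02 (limma adjusted p = 0.77), and neither were MNT, MXI1 and MYCL.

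The mean of the members, each centred on its own DMSO mean, varied little between libraries. It lay at 0.06, -0.02 and -0.04 on the log2 scale in the DMSO libraries, at -0.03, -0.03 and -0.0046 in the VHL-r libraries and at -0.05, -0.01 and -0.05 in the R4VPL3-1 libraries. The genes whose centred values came closest to this mean over the 9 libraries were SRPRA, GOT2, GNB1, FH and PRPF6, at root mean square distances of 0.0095, 0.012, 0.016, 0.017 and 0.019 log2 units. The pattern they share with the members is nearly flat, with DMSO replicate 1 slightly above the rest.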

How the data were processed

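Poly(A) RNA from 9 A375R cultures, described in the methods as independent biological repeats, was sequenced as stranded single reads of 100 bases. The authors aligned reads to GRCh38 with STAR, counted them per gene with htseq-count in reverse-strand mode and divided them by DESeq2 (1.36.0) size factors, and deposited these normalized counts (a signal, to 2 decimals) for 62710 genes. Reads were recovered by undoing the size factors (0.934 to 1.10), and 100% of the values came out whole within 0.1 read.

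Groups came from the labels, read with the study's description of its design. The label WT was taken as the DMSO control and L3linker_1 as R4VPL3-1. The column header of DMSO replicate 1 gives no time, whereas those of the other DMSO libraries give 2 h. The test was limma (3.58.1, R 4.3.3, trend option) on log2(normalized count + 1) for 15230 genes averaging 10 or more, with all 9 libraries in 1 fit, Benjamini-Hochberg adjustment over those genes and a threshold of 0.05. Fold changes are on that scale, and percent changes were computed from them. On simulated reads for VHL-r against DMSO (15116 genes), 61 of 100 genes changed by 0.5 log2 and 82 of 100 changed by 1 were called, and 5.3% of calls were false. Alternatives were other pseudocounts, filters, scalings, the robust option, a replicate block, fits of 6 libraries, a threshold of 0.01, edgeR (4.0.16) and DESeq2 (1.42.0) on recovered reads, and leaving out each library. Replicate pairs differed by more than counting noise (chi-square per degree of freedom 4.09 to 9.47), so none was counted as 1 sample.

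The members and lists were chosen with earlier results of these data known. All 10 members are named. From the pathway list, the 3 called genes with the largest fall and the 3 with the largest rise among those with non-overlapping groups were named for each comparison, with the network of MYC, the 5 genes closest in pattern, and markers. ISG20L2, GAR1, RPL39 and MKI67 were named after their values were seen. The plan named 6 pathway groups. A seventh, small group of abundant nucleolar proteins was kept out of the list after its values were seen and is given on its own. Gene positions are those of GENCODE 44. Of the deposited gene ids, 62639 were found there and 62470 had the same coordinates, and the members were not checked separately.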

Additional observations from a re-analysis of the deposited data

How the results depend on the processing

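The calls of NOP56 and RRS1 against DMSO were kept in every alternative run. All 30 member results (10 genes in 3 comparisons) stayed on their side of the threshold in 570 of 570 alternative values, although estimates close to 0 changed sign in some. In VHL-r cells the adjusted p of NOP56 reached 0.0472 without DMSO replicate 2, and in R4VPL3-1 cells 0.0483. RRS1 in R4VPL3-1 against VHL-r had adjusted p-values of 0.0629 to 0.623. Rescaling moved the median of all genes by no more than 0.0177 log2.

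The counts of the pathway list depended on the processing, and the cause was not tested. In VHL-r cells the 18 lower calls became 8 with no filter on low values and 4 at the 0.01 threshold, and 4 to 14 when 1 library was left out, lowest without DMSO replicate 1 (5 without DMSO replicate 2 or VHL-r replicate 2). The 1 higher call became 2 with the TMM, upper quartile and nuclear total scalings and by edgeR, and 1 to 4 when 1 library was left out, highest without VHL-r replicate 3. In R4VPL3-1 cells the 3 higher calls became 5 with the upper quartile and 1 at the 0.01 threshold, where the 24 lower calls became 15. They became 1 to 5 higher (lowest without R4VPL3-1 replicate 2, highest without replicate 3) and 17 to 24 lower when 1 library was left out. Between the compounds the 1 lower call became 0 with a pseudocount of 0.1, no filter, the TMM or upper quartile scaling, 6 libraries, edgeR or the 0.01 threshold, 2 with the nuclear total or DESeq2, and 0 to 1 lower and 0 to 1 higher when 1 library was left out.

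Deviations from the group means correlated at -0.006 to 0.121 between libraries with the same replicate number. Between libraries with different numbers the correlations were -0.148 to 0.098. These correlations do not settle whether the numbers mark a pairing. The running sample numbers in the column headers place same-numbered libraries of the groups next to each other. What that order stands for is not said. The main fit took no pairing, and a replicate block was run as an alternative. With a replicate block the list counts were 2 higher and 21 lower in VHL-r cells, 4 and 28 in R4VPL3-1 cells, and 0 and 2 between the compounds, and no call of a member changed.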
